A study of Mus musculus with 6 samples.

Results

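The pluripotency factors considered here were 10 transcription factor genes, Pou5f1, Nanog, Sox2, Otx2, Klf2, Klf4, Esrrb, Zfp42, Tbx3 and Sall4, chosen by name and read from every array probe that the platform annotation assigns to one of these symbols. They had 21 probes of 45281 on the array and were 10 of 19057 named genes. Of the genes, 3 had 1 probe, 4 had 2, 2 had 3 and 1 had 4, and each probe was treated apart and numbered within its gene. Expression was measured on 6 Illumina mouse BeadArrays, 1 for each pool of 100 to 120 blastocysts, which the series' text dates to day 3.5. The mothers were CD-1 females, an outbred strain, given 5 IU of pregnant mare gonadotropin and, 44 h later, 5 IU of human chorionic gonadotropin before mating. For comparison, 3 sources were sampled, with 2 arrays each: normal uterus (uterus group), the uterus of mothers given 0.5 µg per mouse of a compound that the labels call only ICI (ICI group), and oviducts that had been ligated (oviduct group). A time of 70 h after the second injection is given without saying whether it dates the ICI dose or the flushing, and both ligation and recovery from the oviduct are put on day 4, with the plug on day 1. Whether pools of 1 group had different mothers is not stated, so that each p-value reflects the spread between these pools, which may be technical. By its title the study asked which embryonic genes estrogen regulates before implantation.

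The epiblast is the part of the inner cell mass that gives rise to the fetus. Its state rests on a network in which Pou5f1 (which encodes OCT4) and Sox2 act as partners on shared DNA sites, Nanog stabilises the state, and Esrrb, Klf2, Klf4, Tbx3 and Zfp42 (REX1) belong to its naive form. Otx2 takes part in the step from the naive to the formative epiblast, and Sall4, a zinc finger factor, works with OCT4. Klf4, Tbx3, Sall4, Esrrb and Pou5f1 are also known in the trophectoderm or primitive endoderm of the blastocyst or its precursors, so a signal from whole embryos is not one from epiblast alone.

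The RNA of whole embryos held all 10 genes. Of the 21 probes, 18 were above background (detection p-value under 0.05) on all 6 arrays, 2 (Sox2 probe 1 and Sall4 probe 2) on 4 arrays, and 1 (Esrrb probe 2, assigned to a complementary DNA clone) on 0 arrays. Every gene had at least 1 probe above background on all 6 arrays. The analysis took the 20 probes above background on both arrays of some group, among 17677 such probes in all, after background correction with an offset of 16, quantile normalization and log2 transformation. A level is given below as this log2 normalized signal, or as the mean bead signal where so named. The levels of different probes are not compared. Over the 18 probes above background on all arrays, the standard error over beads was 3.44% of the signal at the median and 6.48% at most, with a median of 39 beads per member probe.

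Across the whole series, 16525 to 18182 probes were above background on an array. The mean signal over all probes was 488.3 on oviduct replicate 1 and between 343.5 and 381.4 on the other arrays. Of the markers of the other blastocyst lineages, 11 of 12 trophectoderm genes and 9 of 11 primitive endoderm genes were analysed, Cdx2 among them, while Krt19, Gata4 and Foxa2 were not above background. The trophectoderm markers had a summed signal of 40117 and 31986 on oviduct replicates 1 and 2, 50140 and 46798 for the uterus and 44733 and 46742 for ICI, and 10 of the 11 were below 0 for oviduct against uterus, with a median log2 difference of -0.63. The oviduct group had the widest replicate spread, with a median SD over all analysed probes of 0.24, against 0.14 for uterus and 0.11 for ICI. Of the other markers on the array, 3 of 7 for oviduct epithelium were above background. Their summed signal was 217 and 507 on oviduct replicates 1 and 2, 152 and 159 for the uterus and 138 and 165 for ICI. For blood and immune cells the count was 4 of 8, with 210 and 2034, 1270 and 552, and 148 and 316 in that order. For stroma and muscle it was 4 of 9, with 179 and 448, 164 and 139, and 159 and 143. For oocyte and early cleavage genes it was 4 of 8, with 332 and 599, 322 and 4197, and 249 and 250. For uterine epithelium it was 5 of 7, with 3063 and 3334, 5865 and 5448, and 4733 and 5395. The ciliated cell gene Foxj1, the leukocyte gene Ptprc and the collagen gene Col1a1 were among the markers that did not pass the background filter. Others did: the stromal marker Dcn was above background on 2 oviduct, 0 uterus and 0 ICI arrays. In the same order the counts were 2, 0 and 2 for the oviduct marker Ovgp1 and 2, 0 and 1 for the immune cell marker Lyz2. The stromal marker Pdgfrb went the other way, at 0, 2 and 0, as did the uterine epithelium marker Prap1, at 0, 2 and 1. Prap1, which entered only through the uterus group, had log2 levels of 4.52 and 4.66 for oviduct, 10.19 and 8.76 for uterus and 4.56 and 5.08 for ICI. Of the 5 uterine epithelium genes, 1 passed a limma adjusted p under 0.05 as lower in oviduct than in uterus, as did 0.0453% of all analysed probes. The part of these transcripts in the results below was not tested.

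**Figure D1:**
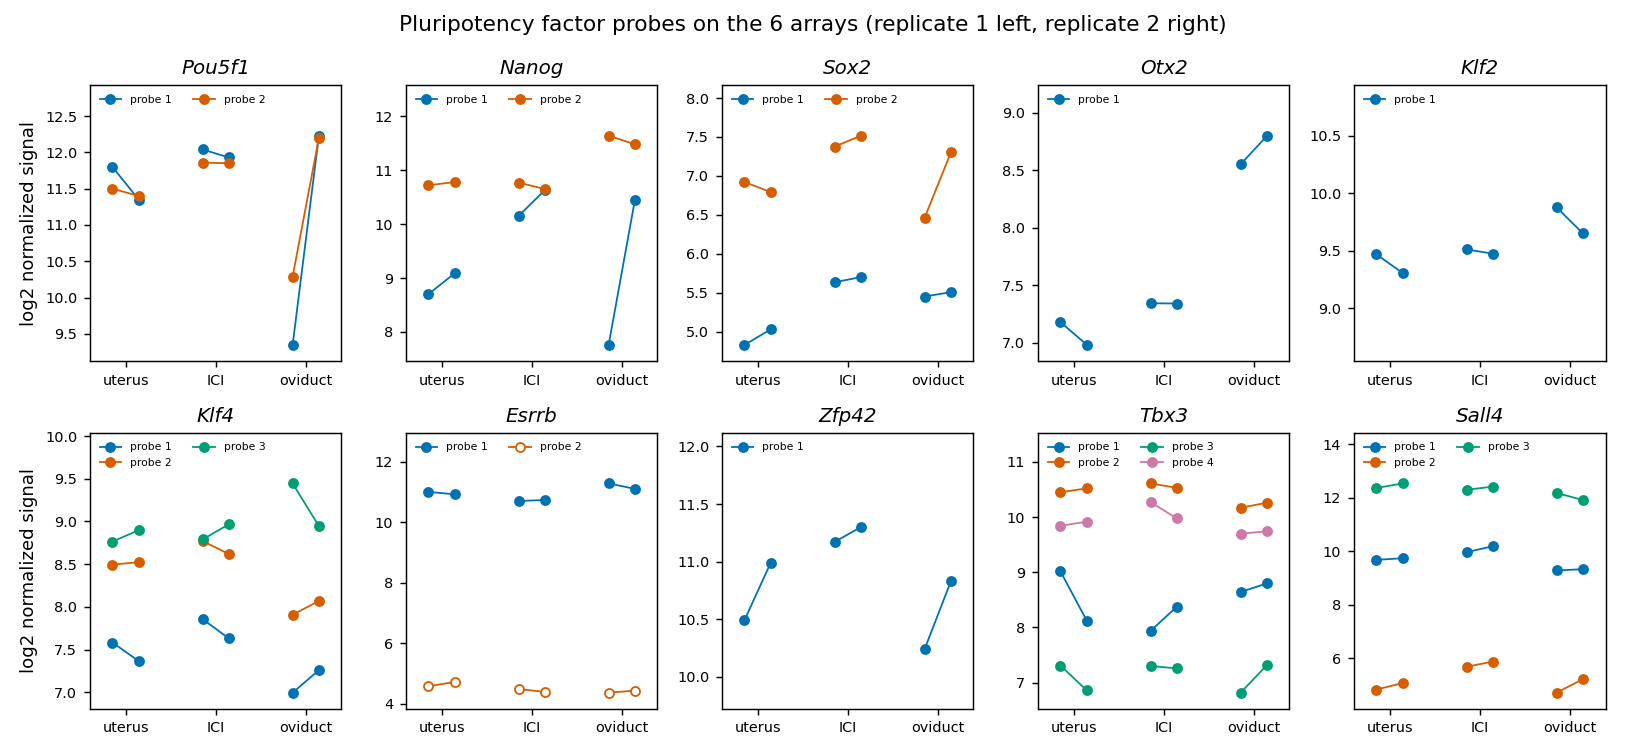
Log2 normalized signal (vertical axes, each panel with its own scale) of every probe of the 10 genes on the 6 arrays; lines join replicates 1 and 2 of a group, and open circles mark the Esrrb probe that was above background on 0 arrays. Both oviduct arrays of Otx2 lie above the other 4, while the 2 oviduct arrays of Pou5f1 lie apart, at 9.35 and 12.23 on probe 1.

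Otx2, which helps to open the way from the naive to the formative epiblast, had the smallest F-test p of the members. Its 1 probe (ILMN_2691752) gave mean bead signals of 582 and 498 on oviduct replicates 1 and 2, 186 and 173 for the uterus, and 216 and 199 with ICI. Both oviduct arrays lay above all 4 arrays from the uterus, the lower one 2.31-fold above the highest of these. On the log2 scale the level was 8.68 ± 0.17 (SD, n = 2) for oviduct, 7.08 ± 0.14 (SD, n = 2) for uterus and 7.34 ± 0.001 (SD, n = 2) for ICI.

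Between oviduct and uterus the log2 difference of Otx2 was 1.59 (SE 0.19, 95% interval 1.15 to 2.04), or 3.02-fold, which did not pass over all analysed probes (limma adjusted p = 0.0561). In that comparison 21 analysed probes had a smaller p. Between ICI and oviduct the difference was -1.33 (SE 0.19, limma adjusted p = 0.0526), and between ICI and uterus 0.26 (SE 0.19, limma adjusted p = 0.674). The comparisons share arrays, and each value is given as its own. Leaving out an oviduct array leaves 1, which the fit assumes to vary like the uterus and ICI arrays, the groups of smaller spread. The probes called between oviduct and uterus then go from 9 to 1516 without oviduct replicate 1 and to 436 without replicate 2, so an adjusted p from such a fit, here and below, is no sign of stability. In these fits the Otx2 difference of oviduct from uterus was 1.72 (adjusted p = 0.010) and 1.47 (adjusted p = 0.0420), and that of ICI from oviduct -1.46 (adjusted p = 0.0154) and -1.21 (adjusted p = 0.0177). Over all alternatives the adjusted p against uterus reached 0.474. With median scaling the oviduct difference from uterus was 1.88 (limma adjusted p = 0.0460). That setting put the median of all analysed probes at 0.22 in this comparison and at -0.26 between ICI and oviduct. In bulk RNA, more cells that express a gene and more RNA per cell cannot be told apart.

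Nanog, the homeodomain factor that stabilises the naive state, gave different pictures on its 2 probes. Probe 2 (ILMN_2706623), the brighter one, gave mean bead signals of 4382 and 2814 on oviduct replicates 1 and 2, 1691 and 1634 for uterus and 1709 and 1393 for ICI. Both oviduct arrays were above all others. Its log2 difference was 0.81 (SE 0.17) for oviduct against uterus, or 1.76-fold, and -0.85 (SE 0.17) for ICI against oviduct, with limma adjusted p of 0.109 and 0.0850. With 1 oviduct array the latter was -0.78 without replicate 1 and -0.93 without replicate 2 (adjusted p = 0.0600 and 0.0249). Between ICI and uterus it was -0.04 (SE 0.17, interval -0.46 to 0.38).

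Probe 1 (ILMN_1245732) of Nanog gave mean bead signals of 353 and 1412 on oviduct replicates 1 and 2, 447 and 549 for uterus and 1123 and 1380 for ICI. In these signals the oviduct arrays were its lowest and its highest, 4.00-fold apart (after normalization ICI replicate 2 was the highest, at a log2 level of 10.63), and both ICI arrays lay above both uterus arrays. The log2 difference was 1.50 (SE 0.77, interval -0.33 to 3.32) for ICI against uterus and 0.21 (SE 0.77) for oviduct against uterus, with limma adjusted p of 0.583 and 0.907. With 1 oviduct array, the oviduct difference from uterus was 1.55 without replicate 1 and -1.13 without replicate 2. These fits leave out the spread between the 2 oviduct arrays, which was 2.69 log2 units after normalization. Between ICI and oviduct the difference was 1.29 (SE 0.77, limma adjusted p = 0.374), and -0.06 without oviduct replicate 1 and 2.63 without replicate 2 (adjusted p = 0.925 and 0.0131).

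The distance between the 2 Nanog probes varied widely over the arrays. The log2 gap of probe 2 over probe 1 was 3.88 and 1.04 on oviduct replicates 1 and 2, 2.02 and 1.69 for uterus, and 0.63 and 0.01 for ICI. It therefore ran over 3.87 log2 units, and of 5288 such probe pairs, in 3669 genes, 0.0567% ran over more. Within an array such a gap shows unequal change between probes, and not which of them changed. Over all pairs the median distance of a gap from its own median was 0.30 on oviduct replicate 1 and between 0.12 and 0.20 on the other 5 arrays. The reference annotation lists 2 pseudogenes of Nanog and 7 of Pou5f1 by these names, and the probes' sequences were not used here, so signal from such copies was not tested.

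**Figure D2:**
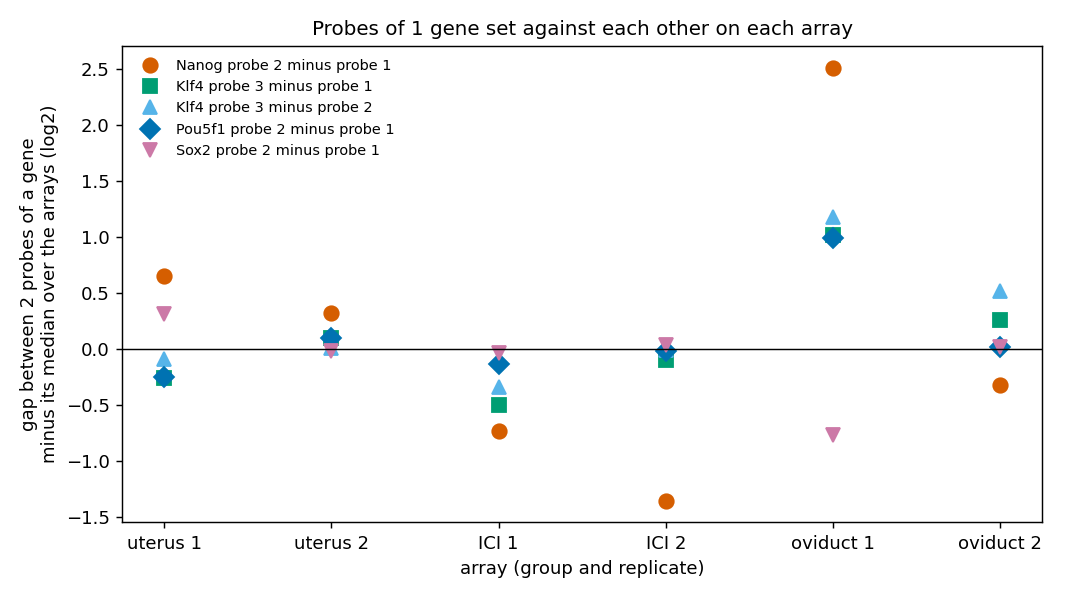
Log2 gap between the brightest probe and another probe of the same gene on each array, minus the median of that gap over the 6 arrays, for pairs picked from the members. The pairs of Tbx3 and Sall4 are not drawn. Of these, the gap of Tbx3 probe 2 over probe 1 ran over 1.24 log2 units, beside 1.23 for Pou5f1. On oviduct replicate 1 it was 1.53, below its median. On oviduct replicate 1 the gaps of Nanog, both Klf4 pairs and Pou5f1 lie above their medians and that of Sox2 below; the 2 ICI arrays show the lowest Nanog gaps.

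Pou5f1, which encodes OCT4, a POU factor required for the inner cell mass, differed more between the 2 oviduct arrays than between groups. Probe 1 (ILMN_1217100) gave mean bead signals of 972 and 4645 on oviduct replicates 1 and 2, 3535 and 2405 for uterus and 4072 and 3345 for ICI. Probe 2 (ILMN_1252910) gave 1805 and 4543, 2887 and 2472, and 3592 and 3146 in the same order. On both probes oviduct replicate 1 was the lowest array and oviduct replicate 2 the highest, and the ICI and uterus signals overlapped on probe 1. After normalization, at log2 levels of 12.04 and 11.93 on probe 1 and 11.86 and 11.85 on probe 2, the ICI arrays lay above the uterus arrays on both probes, where uterus stood at 11.80 and 11.35, and at 11.50 and 11.40.

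The 2 oviduct arrays were 4.78-fold apart on Pou5f1 probe 1 and 2.52-fold apart on probe 2, against a standard error over beads of 2.39% to 3.62% of those signals. After normalization these gaps were 2.88 and 1.92 on the log2 scale, and 0.294% and 1.15% of all analysed probes had a larger one. The log2 difference of oviduct from uterus was -0.78 (SE 0.81) on probe 1 and -0.21 (SE 0.55) on probe 2, with limma adjusted p of 0.641 and 0.870. With 1 oviduct array, and so without the spread between these arrays, it was 0.66 and 0.75 without replicate 1 and -2.23 and -1.17 without replicate 2, the last pair at an adjusted p of 0.0420 and 0.0446. For ICI against uterus it was 0.41 (SE 0.81) and 0.40 (SE 0.55), with limma adjusted p of 0.888 and 0.831. For ICI against oviduct it was 1.19 and 0.61. There too the sign turned with the array left out, at -0.25 and -0.35 without oviduct replicate 1 and 2.63 and 1.57 without replicate 2 (adjusted p = 0.0131 for each of the last pair). The summed signals of oviduct epithelium, stroma, blood, oocyte and uterine epithelium markers given above were also higher on oviduct replicate 2 than on replicate 1. Those of trophectoderm markers were lower on replicate 2, at 31986 against 40117, as were those of primitive endoderm markers, at 10569 against 12530. Single markers could go against the sum of their list. On oviduct replicates 1 and 2 the blood list's Csf1r had log2 levels of 5.26 and 5.14, and the uterine epithelium list's Muc1 6.54 and 4.97. The part of any of these in the Pou5f1 gap was not tested.

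Sox2, the partner of OCT4, was higher in the ICI group than in the uterus group on probe 2, without passing the test. Probe 2 (ILMN_2656102) had log2 levels of 7.38 and 7.52 for ICI, 6.92 and 6.79 for uterus and 6.46 and 7.30 on oviduct replicates 1 and 2. On this scale the ICI arrays were above all others. In mean bead signals oviduct replicate 2 was the highest, at 227 against 220 and 216 for ICI. The difference of ICI from uterus was 0.59 (SE 0.29, limma adjusted p = 0.576), and that of ICI from oviduct 0.56 (limma adjusted p = 0.308). With 1 oviduct array the latter was 0.14 without replicate 1 and 0.98 without replicate 2 (adjusted p = 0.679 and 0.0245). Probe 1 (ILMN_1248711), dimmer, was above background on both ICI arrays and both oviduct arrays and on neither uterus array. The background filter thus partly fixed its place above uterus. Against the lowest signal measurable there, which sets a bound, it was at least 1.51-fold higher in the ICI group (limma adjusted p = 0.535, measured log2 means 5.67 and 4.93) and at least 1.32-fold higher in the oviduct group (limma adjusted p = 0.182, mean 5.48). The 2 probes did not tell the same of the oviduct group, where probe 2 differed from uterus by 0.03 (SE 0.29).

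Among partners of this core, Sall4, whose product binds OCT4, was read by 3 probes. Probe 3 (ILMN_3124235), the brightest and assigned to another transcript than the other 2, had log2 levels of 12.37 and 12.54 on the uterus arrays, 12.30 and 12.42 for ICI and 12.18 and 11.92 on oviduct replicates 1 and 2. After normalization the oviduct arrays were the lowest, at -0.40 (SE 0.19) from uterus. In mean bead signals oviduct replicate 1 was the highest array, at 6365, and oviduct replicate 2 the lowest, at 3763. The uterus arrays stood at 5201 and 5428 there. Probe 1 stood at 9.68 and 9.74, 9.96 and 10.19, and 9.28 and 9.33, lowest in the oviduct group after normalization, and highest in the ICI group. Its mean bead signals were 925 and 686 on oviduct replicates 1 and 2, on either side of uterus at 840 and 833. Its log2 difference for ICI against oviduct was 0.77 (SE 0.18, limma adjusted p = 0.103), and with 1 oviduct array 0.74 without replicate 1 and 0.79 without replicate 2 (adjusted p = 0.0777 and 0.0406). Probe 2 was above background on both ICI arrays and on 1 array of each other group, so its differences for ICI of 0.83 from uterus and 0.81 from oviduct (limma adjusted p = 0.535 and 0.139) rest on signals at the edge of detection. The latter was 0.56 without oviduct replicate 1 and 1.07 without replicate 2, and in the second fit, which called it, the 1 oviduct array left was not above background.

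Klf4, a Krüppel-like factor of the naive state, had 3 probes that disagreed about the oviduct. Probes 1 and 2 were lower there than in the uterus group, with a log2 difference of -0.35 (SE 0.20) and -0.52 (SE 0.18), although that of probe 1 was 0.04 in the ratio of raw signals. Probe 3 was higher, by 0.36 (SE 0.22), with levels of 9.45 and 8.95 on oviduct replicates 1 and 2 and between 8.76 and 8.97 on the other 4 arrays. In each of the 3, after normalization, the oviduct arrays did not overlap the uterus arrays. Their limma adjusted p ran from 0.198 to 0.423, and no direction can be given for the gene. For ICI against oviduct, probe 2 differed by 0.71 (SE 0.18, limma adjusted p = 0.115), and with 1 oviduct array by 0.63 without replicate 1 and 0.79 without replicate 2 (adjusted p = 0.101 and 0.0364).

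Klf2, the related factor that shares targets with Klf4, had log2 levels of 9.88 and 9.65 on oviduct replicates 1 and 2, 9.47 and 9.31 for uterus and 9.51 and 9.47 for ICI. The oviduct arrays were highest, and its differences were 0.38 (SE 0.18, limma adjusted p = 0.326) from uterus for oviduct and 0.11 (SE 0.18) for ICI. Esrrb, an orphan nuclear receptor, stood at 11.29 and 11.11 for oviduct, 11.01 and 10.93 for uterus and 10.71 and 10.74 for ICI. The 3 groups did not overlap, with oviduct above uterus and uterus above ICI. Neighbouring groups in this order differed by 0.23 and 0.24 (SE 0.17 each), with limma adjusted p of 0.517 and 0.674, and the outer pair by -0.47 for ICI against oviduct (SE 0.17, limma adjusted p = 0.204).

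Zfp42, which encodes REX1, a zinc finger protein used as a mark of the naive state, had log2 levels of 11.17 and 11.30 for ICI, 10.49 and 10.99 for uterus and 10.24 and 10.83 on oviduct replicates 1 and 2. The ICI arrays were highest, and the other groups overlapped. Its log2 difference was 0.49 (SE 0.27, limma adjusted p = 0.605) for ICI against uterus and 0.70 (SE 0.27, limma adjusted p = 0.220) for ICI against oviduct, and with 1 oviduct array the latter was 0.40 without replicate 1 and 0.99 without replicate 2 (adjusted p = 0.387 and 0.0478). Tbx3, a T-box repressor that sustains self-renewal, had 4 probes. Its brightest probe, probe 2, had log2 levels of 10.45 and 10.52 for uterus, 10.61 and 10.53 for ICI and 10.17 and 10.26 for oviduct. The oviduct arrays were the lowest after normalization. In mean bead signals oviduct replicate 1 was the highest array, at 1663, and oviduct replicate 2 the lowest, at 1241. The raw signal ratio put oviduct above uterus, by 0.055 on the log2 scale. The differences of the 4 Tbx3 probes ran from -0.41 to 0.25 for ICI against uterus and from -0.27 to 0.15 for oviduct against uterus, with limma adjusted p from 0.433 to 0.979.

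**Figure D3:**
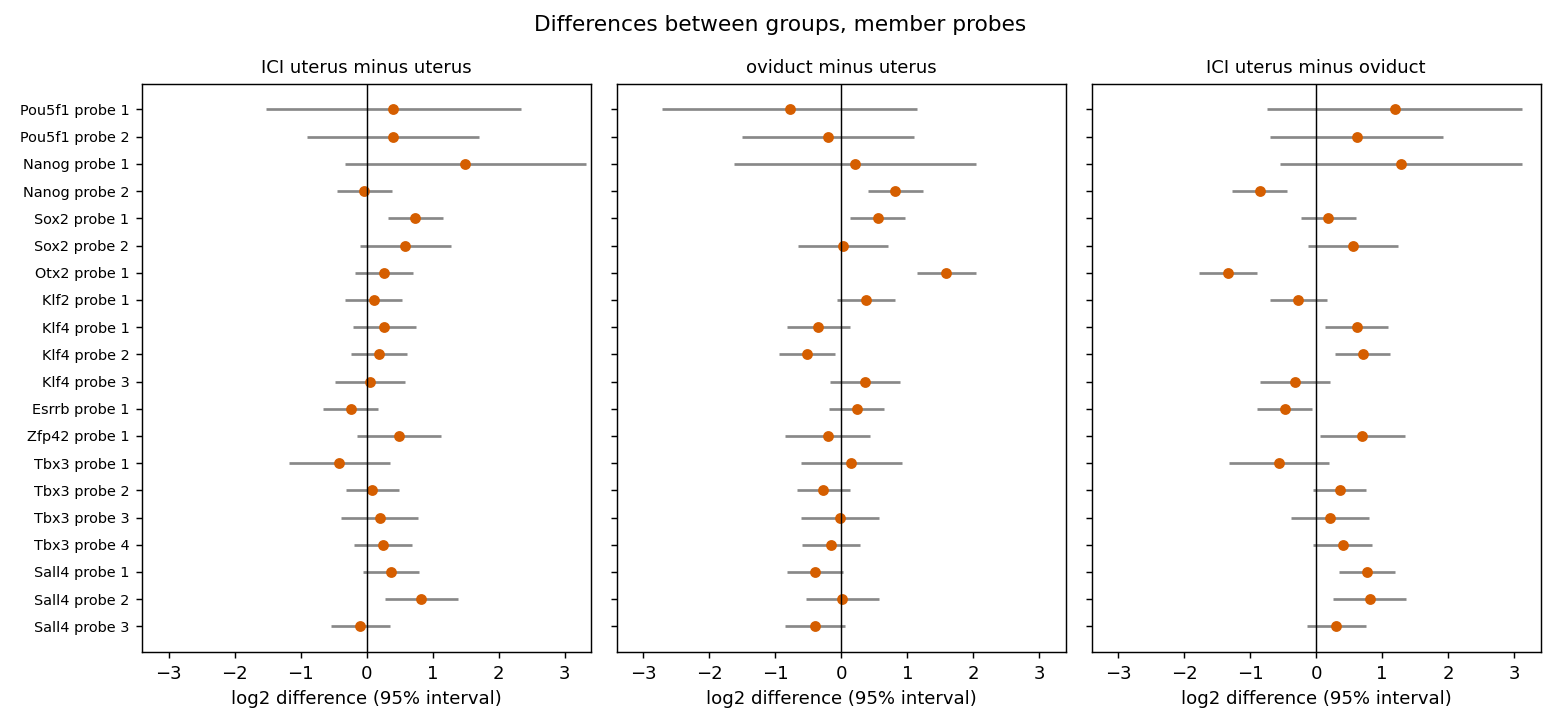
Log2 difference (points) with its 95% interval (bars) for each analysed probe in the 3 comparisons, from the linear model over all 6 arrays. For oviduct against uterus the intervals of Otx2, Nanog probe 2 and Sox2 probe 1 lie wholly above 0 and that of Klf4 probe 2 wholly below. Sox2 probe 1 was above background on 0 uterus arrays, so the background filter partly fixed its place, and Sox2 probe 2 differed by 0.03. The intervals of Pou5f1 and Nanog probe 1 are widest, since their oviduct arrays lie apart.

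Counted together, 0 of the 20 probes passed a limma adjusted p under 0.05 in any of the 3 comparisons. Of all analysed probes, 0% passed between ICI and uterus, 0.0509% between oviduct and uterus (0.00566% higher and 0.0453% lower) and 0.339% between ICI and oviduct (0.221% higher and 0.119% lower). At an unadjusted p under 0.05, 2 of 20 did between ICI and uterus (10% against 9.23% of all probes), 4 of 20 between oviduct and uterus (20% against 18.5%), and 8 of 20 between ICI and oviduct (40% against 20.7%). The shares against uterus are close to those of all probes, and the probes of a gene share their source. The 8 between ICI and oviduct include probes 1 and 2 of Klf4 and of Sall4, and Sall4 probe 2 entered only through the ICI group. With each gene at its brightest probe that count was 4 of 10. The members were chosen with earlier results of these data known, so this share is a description only. The 2 between ICI and uterus were Sox2 probe 1, above background on 0 uterus arrays, and Sall4 probe 2, which entered only through the ICI group, where it was high. Of the 18 probes above background on all arrays the counts were 0, 3 and 7. For the 3 groups together, 0 of 20 passed the moderated F-test, as against 0.0226% of all probes (18.9% at an unadjusted p under 0.05), and the smallest F-test p was that of Otx2 (0.000153, adjusted p = 0.0695).

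The groups' arrays did not overlap for many member probes. Both ICI arrays lay above both uterus arrays for 14 of 20 probes (70%, against 25.3% of all probes) and below them for 1 (5%, against 28.7%). That 1 was Esrrb. The 14 include Sox2 probe 1 and Sall4 probe 2, whose place above uterus the background filter partly fixed, and without them the count was 12 of 18. With each gene at its brightest probe it was 6 of 10 genes above (Pou5f1, Sox2, Otx2, Klf2, Zfp42 and Tbx3) and 1 below. The median log2 difference in that comparison was 0.25 over the 20 probes, where a gene counts once for each of its probes. Over the 10 genes at their brightest probes it was 0.10, beside -0.03 for all probes. With the authors' deposited log2 values the median of the 10 genes was -0.02, and with median scaling 0.00. Between oviduct and uterus 6 of 20 probes lay above (30%, against 23.5%) and 6 below (30%, against 23.8%). The 6 above include Sox2 probe 1, and of the 18 probes above background on all arrays 5 lay above and 6 below. At the brightest probe it was 5 of 10 genes above and 2 below. The median was -0.001 over the 20 probes and 0.13 over the 10 genes, beside 0.00 for all probes. Between ICI and oviduct 10 of 20 lay above (50%, against 26.1%) and 5 below (25%, against 27.3%). The 10 include Sall4 probe 2, which entered only through the ICI group, where it was high. Of the 18 probes above background on all arrays 8 lay above and 5 below. At the brightest probe it was 4 of 10 genes above and 4 below. The median was 0.38 over the 20 probes and 0.02 over the 10 genes, beside -0.01 for all probes. With median scaling the median of the 10 genes was -0.27, beside -0.26 for all probes.

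**Figure D4:**
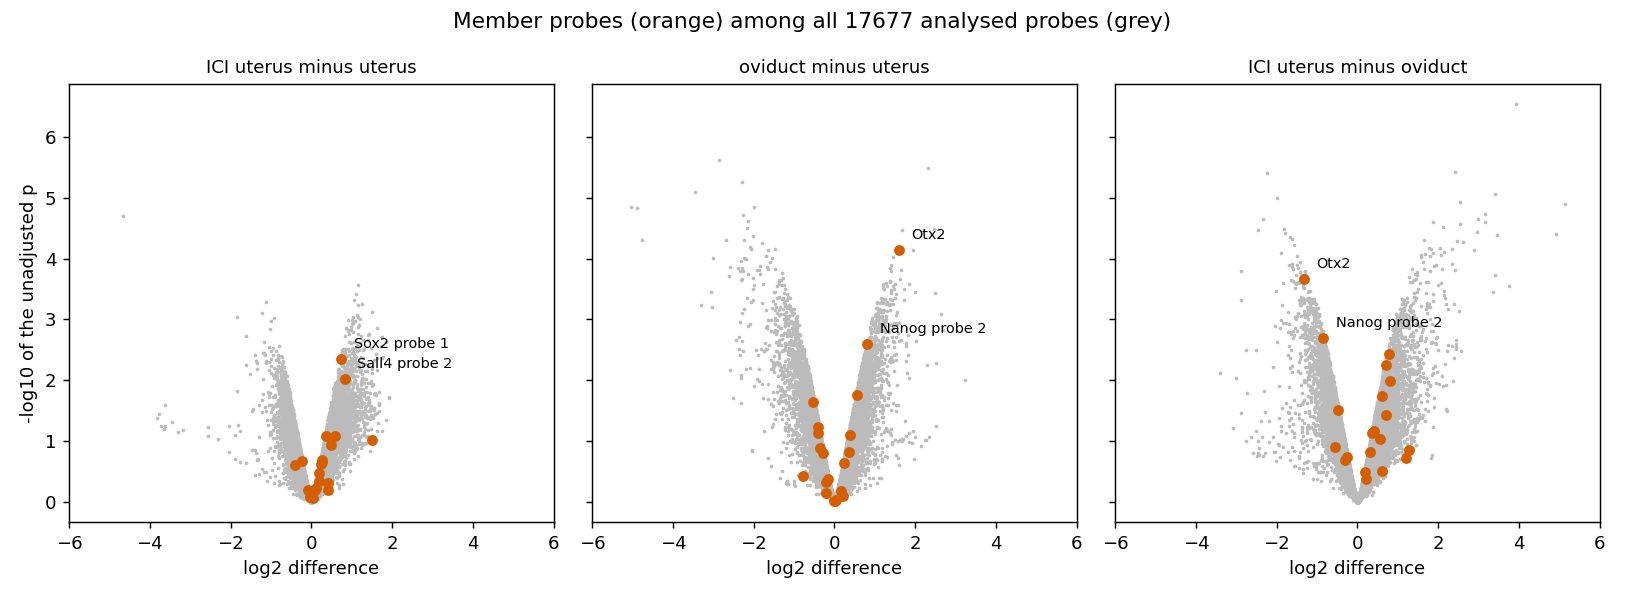
Log2 difference (horizontal) against -log10 of the unadjusted p (vertical) for all 17677 analysed probes (grey) and the 20 member probes (orange), with the 2 member probes of smallest p named in each comparison. Otx2 lies near the upper edge of the cloud for oviduct against uterus, with 21 probes of smaller p.

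Other genes of the network were read from lists, each gene at its brightest probe. Of 28 further genes of the naive network, 22 were measured and 0 passed in either direction in any comparison. For oviduct against uterus 8 of the 22 had an unadjusted p under 0.05, as had 18.5% of all analysed probes. The median was -0.07, with 10 genes above 0 and 12 below. The 4 of smallest p were Dnmt3l, a cofactor of DNA methylation, at -0.76 (SE 0.19), the homeobox gene Gbx2 at -0.78 (SE 0.20), the Krüppel-like factor gene Klf5 at -0.66 (SE 0.19) and the nuclear receptor gene Nr5a2 at 0.72 (SE 0.22), with limma adjusted p from 0.129 to 0.171. For ICI against uterus the median was -0.02. There the smallest p were those of Fgf4, the growth factor that the epiblast sends to its neighbours, at 0.89 (SE 0.24), and Tdgf1, a co-receptor of Nodal, at 0.63 (SE 0.22), both with a limma adjusted p of 0.535. Fgf4 was above background on 5 of 6 arrays.

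Of 16 genes of the formative and primed epiblast, where Otx2 has its known role, 7 were measured, and Fgf5 and Pou3f1 were among 8 that did not pass the background filter. Of the 7, 0 passed the limma test. At an unadjusted p under 0.05 there were 3 for oviduct against uterus (18.5% of all probes) and 0 for ICI against uterus (9.23%). For oviduct against uterus 6 of 7 were below 0 and the median was -0.43, beside 1.59 for Otx2 itself. Nodal stood at -1.26 (SE 0.28), with 1 of its 2 probes of opposite sign, and Lin28b, an RNA-binding protein gene, at 1.11 (SE 0.27), with limma adjusted p of 0.113 and 0.127. Nodal was above background on 1 of 2 oviduct arrays. Etv4, an ETS factor gene, was above background on 0 oviduct, 2 uterus and 2 ICI arrays. The background filter thus partly fixed its place, and it is among the 3 counted above for oviduct against uterus. It was at least 1.45-fold higher in the uterus group than in the oviduct group (limma adjusted p = 0.193). Fgf15 stood at -0.34 (SE 0.18, limma adjusted p = 0.372). For ICI against uterus the median was 0.02.

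Of 21 genes whose products are known as protein partners of these factors, 18 were measured and 0 passed. At an unadjusted p under 0.05 there were 3 for oviduct against uterus (18.5% of all probes) and 3 for ICI against uterus (9.23%). For oviduct against uterus 15 of 18 were below 0 and the median was -0.31. The genes of smallest p were Mta1 at -0.78 (SE 0.18) and Mbd3 at -0.91 (SE 0.23), both subunits of the NuRD chromatin complex, with limma adjusted p of 0.118 and 0.129. With 1 oviduct array Mta1 was at -0.84 without replicate 1 and -0.73 without replicate 2 (adjusted p = 0.0488 and 0.0785). The complex's ATPase gene Chd4 stood at -0.56 (SE 0.24) and the corepressor gene Ctbp2 at -0.44 (SE 0.18), each with 1 probe of opposite sign. For ICI against uterus 14 of 18 were below 0, the median was -0.10, and Smarca4, the ATPase gene of the BAF complex, stood at -0.58 (SE 0.19) and Mta2 at -0.60 (SE 0.21), both with a limma adjusted p of 0.535.

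Of 31 relatives of the factors by gene family, 16 were measured and 0 passed. At an unadjusted p under 0.05 there were 4 for oviduct against uterus (18.5% of all probes) and 0 for ICI against uterus (9.23%). The median for oviduct against uterus was -0.09. Sox15, which belongs to the SOX family with Sox2, had log2 levels of 7.23 and 7.79 on oviduct replicates 1 and 2 and between 6.36 and 6.74 on the other arrays. Its difference from uterus was 1.14 (SE 0.24, limma adjusted p = 0.109), and with 1 oviduct array 1.42 without replicate 1 and 0.86 without replicate 2 (adjusted p = 0.0203 and 0.0720). Sall3 was above background on 0 oviduct, 2 uterus and 1 ICI arrays, so it entered only through the uterus group, where it was high. The background filter thus partly fixed its place, and it is among the 4 counted above. It was at least 1.30-fold higher in the uterus group than in the oviduct group (limma adjusted p = 0.127). Klf16 stood at -0.65 (SE 0.23), with 1 of its 2 probes of opposite sign. For ICI against uterus the median was -0.12, with Klf7 at 0.33 (SE 0.21) and Klf5 at -0.30 (SE 0.19).

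The genes whose pattern over the 6 arrays was most like that of Otx2 and of Nanog probe 2, the 2 members of smallest F-test p, were found by the root mean square distance of log2 levels, each centred on its own mean. Closest to Otx2 were Tdrkh (distance 0.09), Klhl10 (0.11), Sult4a1 (0.12), Smco2 (0.16) and Fthl17f (0.16), where the median over all analysed probes was 0.74. Tdrkh had levels of 7.97 and 8.36 on oviduct replicates 1 and 2 and between 6.65 and 6.96 on the other arrays. Closest to Nanog probe 2 were Mkrn2 (0.05), Fat1 (0.05), Prkar2a (0.06), Prpf31 (0.06) and Nme5 (0.06), where the median was 0.46. Nme5 was above background on 2 of 6 arrays.

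OCT4 and SOX2 are known to bind regulatory DNA of several members, Nanog and Sox2 among them. For that reason 1 window that holds the POU core is printed for each gene that has such a window. RefSeq's promoter table (GRCm38.p6; 250 bases before to 50 after a gene's start) held 14 windows of 8 members. Tbx3 and Sall4 had no entry. The core ATGCAAA of POU factors, searched on both strands, lay in 4 windows of 3 members, Nanog, Sox2 and Zfp42, and in 4.63% of all 32851 windows. A further Nanog window, which overlaps that printed, is left out. The full octamer ATGCAAAT, which contains that core, lay in that of Zfp42 and in 1.74% of all windows. Of the SOX sites, ACAAAG lay in the window of Sox2 (18.7% of all windows) and ACAATG in windows of Nanog, Esrrb and Pou5f1 (12.6%). The KLF core CACCC lay in windows of 6 members, and in 57.5% of all windows. In Nanog the POU core and ACAATG lie 1 base apart, an arrangement known there as a composite OCT4 and SOX2 element. A match in letters is a description and not a measured site. In the sequences below, read 5′ to 3′ on the gene's strand, capitals mark the POU core and the 2 SOX sites on either strand.
Nanog, chr6:122707315-122707614, plus strand: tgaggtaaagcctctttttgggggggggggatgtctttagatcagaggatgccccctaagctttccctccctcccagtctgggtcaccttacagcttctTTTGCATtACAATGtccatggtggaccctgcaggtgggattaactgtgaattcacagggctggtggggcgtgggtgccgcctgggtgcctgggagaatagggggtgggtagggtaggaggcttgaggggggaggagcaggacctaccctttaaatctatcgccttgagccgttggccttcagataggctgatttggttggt
Sox2, chr3:34649745-34650044, plus strand: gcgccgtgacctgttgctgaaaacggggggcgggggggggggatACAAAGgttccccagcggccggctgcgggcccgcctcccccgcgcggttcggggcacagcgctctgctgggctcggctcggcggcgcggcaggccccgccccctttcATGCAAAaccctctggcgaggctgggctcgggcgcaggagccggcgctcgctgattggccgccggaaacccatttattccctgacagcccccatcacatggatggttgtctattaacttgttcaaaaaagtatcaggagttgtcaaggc
Zfp42, chr8:43306960-43307259, minus strand: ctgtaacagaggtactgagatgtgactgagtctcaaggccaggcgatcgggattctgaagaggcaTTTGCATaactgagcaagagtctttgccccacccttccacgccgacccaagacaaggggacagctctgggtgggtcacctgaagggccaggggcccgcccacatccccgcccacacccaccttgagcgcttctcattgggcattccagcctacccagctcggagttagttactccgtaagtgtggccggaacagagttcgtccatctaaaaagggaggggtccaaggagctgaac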

How the data were processed

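The 10 members and the gene lists were chosen with earlier results of these data known. For each probe and array the authors deposited columns, per the file headers: an intensity (the average over beads), the standard error of that signal, a count of beads, and a p-value for detection. The authors also deposited log2 values, which matched the log2 of the signals up to 1 shift for each array and 1 for each probe (largest residual 0.00172), so that levels of probes are lost in them, and whose medians per array ran from -0.109 to 0.082. For scanner software and background step, the sources used here name nothing.

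Signals went through limma's neqc (version 3.58.1, under R 4.3.3) with an offset of 16, quantile normalization and log2. A probe was analysed if some group had it at a detection p-value below 0.05 on its 2 arrays (17677 of 45281). One linear model with 3 group means was fitted to all 6 arrays (lmFit, then eBayes, with 3.77 prior and 3 residual degrees of freedom), with two-sided moderated tests, Benjamini-Hochberg adjustment over all kept probes and a threshold of 0.05. The script was tested on simulated data. Names came from the platform annotation (34885 probes with 1 symbol, 18 with several, 10378 with none), and 34807 matched RefSeq gene identifiers of GRCm38.p6. From each list the text names up to 4 genes of smallest p for oviduct against uterus and up to 2 for ICI against uterus. Search for the POU core was added to that for the octamer after the data were seen. Alternatives were no background correction, median scaling, the authors' values, other detection filters, only the 2 groups compared, the replicate number as a block, raw signal ratios, and each array left out. The number of arrays limits the precision. Figures used matplotlib 3.10.9 in Python 3.11.15.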

Additional observations from a re-analysis of the deposited data

How the results depend on the processing

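The counts over all analysed probes depended on the processing. Probes changed between oviduct and uterus numbered 9, and 1 without background correction or without a detection filter, 38 with median scaling (19 higher and 19 lower), 0 with the authors' values, with the replicate number as a block or with only the 2 groups compared, and 0 to 1516 with 1 array left out (1516 without oviduct replicate 1, 436 without oviduct replicate 2, 0 without any other). Between ICI and oviduct the count of 60 became 20 with the authors' values, 4 without a detection filter, 5 with the replicate block, 0 with only the 2 groups compared, and 0 to 2800 with 1 array left out (2800 without oviduct replicate 2, 1023 without oviduct replicate 1, 0 without any other). For the 3 groups together, 4 became 2 without background correction, 20 with median scaling, 1 with the authors' values, 0 without a detection filter or with the replicate block, and 0 to 1444 with 1 array left out (1444 without oviduct replicate 2, 961 without oviduct replicate 1). Between ICI and uterus it was 0 in every alternative run, with 1632 probes at an unadjusted p under 0.05.

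The number of member probes changed was 0 in the alternatives not named next. Otx2 was the 1 member past the threshold between oviduct and uterus with median scaling, and between ICI and oviduct without background correction, with median scaling and with a detection p under 0.01. With 1 array left out, member probes changed numbered 0 to 3 between oviduct and uterus, 0 to 10 between ICI and oviduct, and 0 to 7 for the 3 groups together, the highest each time without oviduct replicate 2. In such fits the lone array of a group is assumed to vary like the other groups. The replicate block changed no member call. The numbers share no stated source: deviations of same-numbered arrays correlated at 0.230 (oviduct and uterus), 0.0657 (oviduct and ICI) and 0.125 (uterus and ICI) across probes, and only 2 pairs exist per comparison.

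Differences of opposite sign, the cause of which was not tested, were as follows, all of results that did not pass with 6 arrays. With median scaling they were Pou5f1 probe 2 (oviduct against uterus) 0.006, Sox2 probe 1 (ICI against oviduct) -0.002, Klf4 probe 3 (ICI against uterus) -0.020, Zfp42 probe 1 (oviduct against uterus) 0.013, Tbx3 probe 2 (ICI against uterus) -0.012, Tbx3 probe 3 (oviduct against uterus) 0.28, Tbx3 probe 3 (ICI against oviduct) -0.050, Tbx3 probe 4 (oviduct against uterus) 0.068. With the authors' values they were Klf2 probe 1 (ICI against uterus) -0.007, Klf4 probe 3 (ICI against uterus) -0.039, Tbx3 probe 2 (ICI against uterus) -0.031, Tbx3 probe 3 (oviduct against uterus) 0.005, Sall4 probe 2 (oviduct against uterus) -0.15. With the raw signal ratio they were Pou5f1 probe 2 (oviduct against uterus) 0.24, Sox2 probe 1 (ICI against oviduct) -0.092, Klf4 probe 1 (oviduct against uterus) 0.037, Klf4 probe 3 (ICI against uterus) -0.005, Zfp42 probe 1 (oviduct against uterus) 0.090, Tbx3 probe 2 (oviduct against uterus) 0.055, Tbx3 probe 2 (ICI against oviduct) -0.046, Tbx3 probe 3 (oviduct against uterus) 0.28, Tbx3 probe 3 (ICI against oviduct) -0.12, Tbx3 probe 4 (oviduct against uterus) 0.18, Tbx3 probe 4 (ICI against oviduct) -0.008, Sall4 probe 3 (ICI against oviduct) -0.068, Fgf15 (oviduct against uterus) 0.021. With 1 array left out, the differences that took both signs ranged as follows: Pou5f1 probe 1 (oviduct against uterus) -2.23 to 0.66, Pou5f1 probe 1 (ICI against oviduct) -0.25 to 2.63, Pou5f1 probe 2 (oviduct against uterus) -1.17 to 0.75, Pou5f1 probe 2 (ICI against oviduct) -0.35 to 1.57, Nanog probe 1 (oviduct against uterus) -1.13 to 1.55, Nanog probe 1 (ICI against oviduct) -0.056 to 2.63, Nanog probe 2 (ICI against uterus) -0.10 to 0.023, Sox2 probe 2 (oviduct against uterus) -0.39 to 0.45, Klf4 probe 3 (ICI against uterus) -0.041 to 0.14, Zfp42 probe 1 (oviduct against uterus) -0.50 to 0.088, Tbx3 probe 1 (ICI against uterus) -0.86 to 0.035, Tbx3 probe 1 (oviduct against uterus) -0.29 to 0.60, Tbx3 probe 3 (ICI against uterus) -0.030 to 0.42, Tbx3 probe 3 (oviduct against uterus) -0.27 to 0.23, Tbx3 probe 3 (ICI against oviduct) -0.039 to 0.46, Sall4 probe 2 (oviduct against uterus) -0.24 to 0.27, Lin28b (ICI against uterus) -0.088 to 0.57.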
